A study of Mus musculus with 36 samples.

Results

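In mouse fibroblasts on the way to induced pluripotency, 72 array probes gave more signal when tamoxifen was added to doxycycline in cells carrying a tamoxifen-activated Zscan4, yet were lower in pluripotent cells than in fibroblasts or exceeded them by less than a set limit. They were chosen from the 25030 probes of the deposited value table by measured values. On days 3 and 6 of culture both arrays of cells given doxycycline and tamoxifen lay above both arrays of cells given doxycycline alone, which held for 2676 probes. The mean difference over those 2 days was at least 0.15 in the deposited log10 values for 543 of these, and 282 of them also averaged at least 2.3 with both drugs on day 6. In 72 of the 282, the mean of induced pluripotent stem (iPS) and embryonic stem (ES) cells exceeded that of untreated primary fibroblasts by less than 0.3, and in the other 210 it did so by 0.3 or more. Differences between both drugs and doxycycline alone on days 3 and 6, and between pluripotent cells and fibroblasts, therefore chose the members and are described without a test. Each member is 1 probe of the array, with no gene name in the files, so members go by their probe names and no role is given for any of them.

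The study measured RNA on 36 2-colour arrays in 18 groups of 2, each against 1 common RNA pool. Secondary mouse embryonic fibroblasts (MEFs), labelled 2ndMEF-KOS-ZERT2 and all from clone #1 on a hybrid C57Bl/6 x 129 background, were grown in ES medium with LIF. They received doxycycline (1.5 µg/ml) and tamoxifen (200 nM), doxycycline alone, tamoxifen alone or neither drug, and were collected on days 1, 3 and 6. All of these cultures carried both transgene systems, the ones without drug included. Primary MEFs in MEF medium, F1 hybrids from V6.5, carried Zscan4ERT2 (MEF2 ZERT2) or no transgene (MEF3, called wild MEFs here), each labelled with and without tamoxifen. The iPS cells were KOS-ZERT2 clone #2 and the ES cells were the v6.5 line, both in LIF medium without drug. The protocol texts of the wild MEFs labelled Tmx+, and of replicate 2 of the day 1 cultures with tamoxifen alone, mention no tamoxifen. No doxycycline culture lacked Zscan4ERT2, so Zscan4 activity and tamoxifen itself cannot be told apart there. No promoter is named for the transgenes. Nothing in the labels states that both arrays of a group stem from different cultures. The p-values then rest on a spread between arrays that may be technical.

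Zscan4 is a family of DNA-binding proteins with a SCAN domain and zinc fingers. It is known from the mouse embryo at the time its genome is switched on and from rare, short bursts in ES cells, where it is linked to telomere lengthening. A protein fused to ERT2, a modified oestrogen receptor domain, is held inactive until tamoxifen binds. KOS stands for Klf4, Oct4 and Sox2, the factors that turn fibroblasts into iPS cells. In secondary fibroblasts, made from iPS cells that already hold the factors, doxycycline switches them on, and fibroblast genes are shut down before most pluripotency genes appear.

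The probes are DNA of 60 bases, and their sequences are the only identity the files give them. Of the 6 members with the largest difference that chose them, 5 are shown here in lower case, 5′ to 3′, because those differences are the strongest of the set. The files give no chromosome or strand for them.
Z00009019-1: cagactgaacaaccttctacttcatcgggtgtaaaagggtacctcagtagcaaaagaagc
Z00022466-1: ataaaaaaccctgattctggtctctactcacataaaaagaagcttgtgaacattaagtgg
Z00077281-1: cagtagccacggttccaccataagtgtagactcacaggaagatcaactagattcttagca
Z00010834-1: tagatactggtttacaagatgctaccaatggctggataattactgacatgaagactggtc
Z00060430-1: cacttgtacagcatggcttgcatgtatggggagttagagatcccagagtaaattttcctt

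None of these 5 holds the polyadenylation signal AATAAA or ATTAAA. On the strand of the probe, 12 of the 72 members held one (16.7%), Z00050172-1 among them, against 2771 of the 25030 probes of the table (11.1%). The GC content of the members had a median of 43.3% (28.3% to 63.3%), the same as the 43.3% of the whole table. No member matched any of 32851 RefSeq promoter windows or a microRNA hairpin over its full length. Of all 42006 probes on the array, 267 matched a promoter window and 2 a hairpin.

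On single arrays 54.9% to 77.1% of the probes exceeded the scanner software's limit for sample signal over background, called detected here. The small number of arrays limits the precision. The 2 arrays of day 6 cells with tamoxifen alone differed most from each other. The standard deviation (SD) of their log2 ratio difference over 33099 probes was 0.26, against 0.09 to 0.16 in the other 17 groups. The cultures of a given day with doxycycline shared 1 slide and those without it another. Tamoxifen contrasts therefore lay within a slide but always at the same array positions, and effects of doxycycline and of culture day cannot be told apart from those of the slide. Groups are also bulk samples, in which fewer cells of a kind and less RNA per cell cannot be told apart.

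Levels below are the deposited log10 values. They stop near 1 for the dimmest probes, so a difference from such a value depends on that floor. Z00009019-1 had the largest difference of the 72, at 0.64. With both drugs it gave 1.94 and 2.09 on day 3, against 1.64 and 1.63 with doxycycline alone, and 2.34 and 2.32 on day 6, against 1.38 and 1.50 with doxycycline alone. It lay at 1.01 on every array of secondary MEFs without doxycycline and of iPS and ES cells, and between 1.00 and 1.07 in primary MEFs. So this probe had signal above the floor in doxycycline cultures and gained most of it by day 6 with both drugs. In log2 ratios to the reference RNA, its day 6 arrays gave 1.56 and 1.38 with both drugs against 0.21 and 0.25 with doxycycline alone.

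Z00022466-1 came on later. With both drugs it gave 1.42 and 1.64 on day 3, against 1.24 and 1.01 with doxycycline alone, and was detected on only 1 of those 4 arrays. On day 6 it gave 2.92 and 2.86 with both drugs, against 2.37 and 2.35 with doxycycline alone. Z00077281-1 already rose above the floor on day 3, with 2.12 and 2.25 with both drugs against 1.78 and 1.90 with doxycycline alone. Its day 6 arrays gave 2.87 and 2.78 with both drugs, against 2.302 and 2.168 with doxycycline alone. Z00060430-1 gave 2.45 and 2.18 on day 6 with both drugs, against 1.92 and 2.07 with doxycycline alone, the narrowest gap between arrays among the 6. These 4 probes were near 1 in ES cells, at 0.96 to 1.18.

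The remaining pair of the 6 had signal in fibroblasts. Z00010834-1 gave 2.81 and 2.80 on day 6 with both drugs, against 2.45 and 2.42 with doxycycline alone and 1.91 and 1.91 with neither drug. Z00050172-1 reached 3.94 and 3.92 with both drugs, against 3.54 and 3.53 with doxycycline alone and 2.39 and 2.37 with neither drug. It lay at 2.53 and 2.56 in untreated wild MEFs but at 1.26 and 1.41 in iPS cells and 1.64 and 1.62 in ES cells. The probe was thus highest with both drugs on day 6 and lowest in the iPS line.

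**Figure D1:**
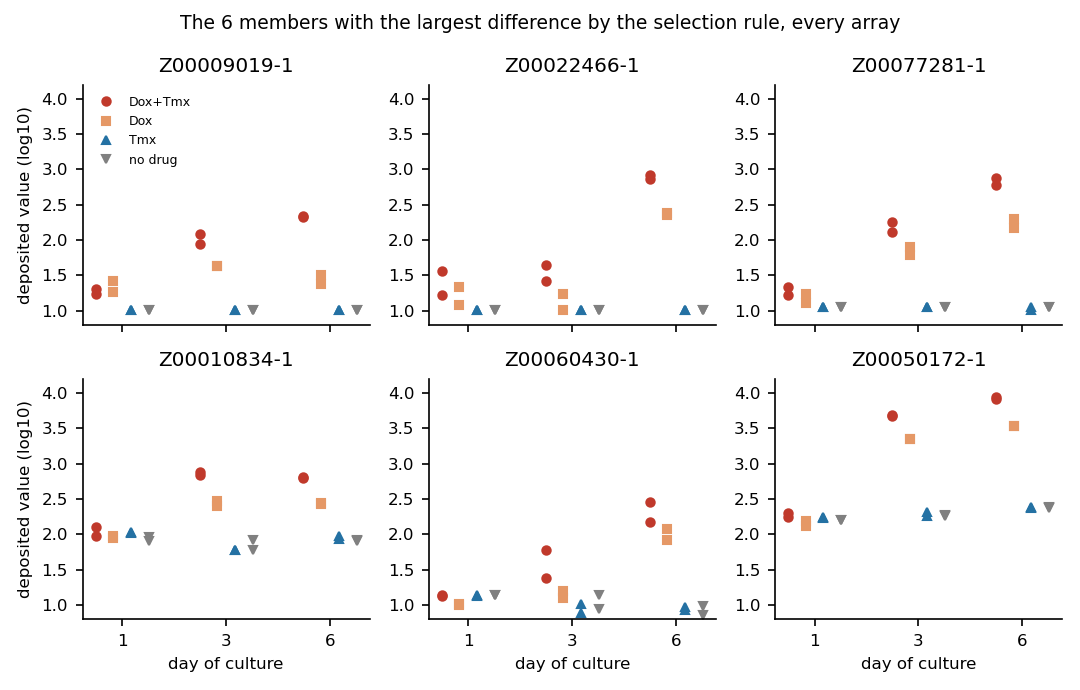
Deposited log10 values of the 6 members with the largest selecting difference, on days 1, 3 and 6 of secondary MEF culture. Each symbol is 1 array (2 a group). Cultures with both drugs (circles) lie above those with doxycycline alone (squares) on days 3 and 6, while cultures without doxycycline stay near 1 in Z00009019-1, Z00022466-1, Z00077281-1 and Z00060430-1.

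Over all 72 members the difference between both drugs and doxycycline alone had a median of 0.19 on day 3 and 0.23 on day 6, and it was larger on day 6 in 46 of them. In log2 ratios the medians were 0.53 (0.10 to 1.36) on day 3 and 0.73 (0.31 to 1.59) on day 6, against 0.00 and 0.01 over the 33099 probes fitted. In those ratios both arrays with both drugs lay above both with doxycycline alone on both days for 71 of the 72. The exception was Z00024845-1, with 3.92 and 3.55 with both drugs against 3.57 and 3.28 with doxycycline alone on day 6. The rule required this separation on the same arrays, so nothing is read from the 71. Nearest the limit of 0.15, on its inner side, were Z00071317-1 (0.1502) and Z00026671-1 (0.1516), and just outside it Z00052990-1 (0.1495) and Z00054436-1 (0.1493). At the limit on pluripotent minus fibroblast signal, Z00014814-1 (0.27) and Z00026452-1 (0.28) were the nearest inside, with Z00060365-1 (0.30) and Z00076243-1 (0.31) the nearest outside.

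The members fell into 3 sets, drawn after their values were seen and so given no test. In 15, called dim without doxycycline here, the probe was detected on both arrays of none of 6 groups: iPS cells, ES cells, untreated Zscan4ERT2 MEFs, untreated wild MEFs, and the drug-free secondary MEFs of days 3 and 6. In 24 of the others the mean of iPS and ES cells was more than 0.3 below the mean of both untreated primary MEF lines. These are called higher in fibroblasts, which need not hold in each line. The remaining 33 were neither. Day 1 did not enter the definition of the 15, and 1 of them was detected on both drug-free day 1 arrays. All 72 were detected on both arrays of day 6 with both drugs (73.9% of the table), which a rule with a minimum level there favours. All were likewise detected with doxycycline alone (75.1% of the table). With neither drug on day 6 it was 56 (72.4% of the table), in iPS cells 44 (66.3%) and in ES cells 47 (69.6%).

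The median of all 72 on days 1, 3 and 6 was 2.34, 2.88 and 2.84 with both drugs, 2.25, 2.72 and 2.64 with doxycycline alone, 2.23, 2.24 and 2.38 with tamoxifen alone, and 2.17, 2.19 and 2.37 with neither drug. It was 2.33 in Zscan4ERT2 MEFs with tamoxifen against 2.27 without, 2.415 in wild MEFs labelled Tmx+ against 2.297 in those labelled Tmx-, 1.97 in iPS cells and 2.08 in ES cells. The median of the whole table stayed between 2.38 and 2.45 in all 18 groups. The members' median thus stood above that of the table on days 3 and 6 with doxycycline, which the rule favours, and below it in the other 14 groups.

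**Figure D2:**
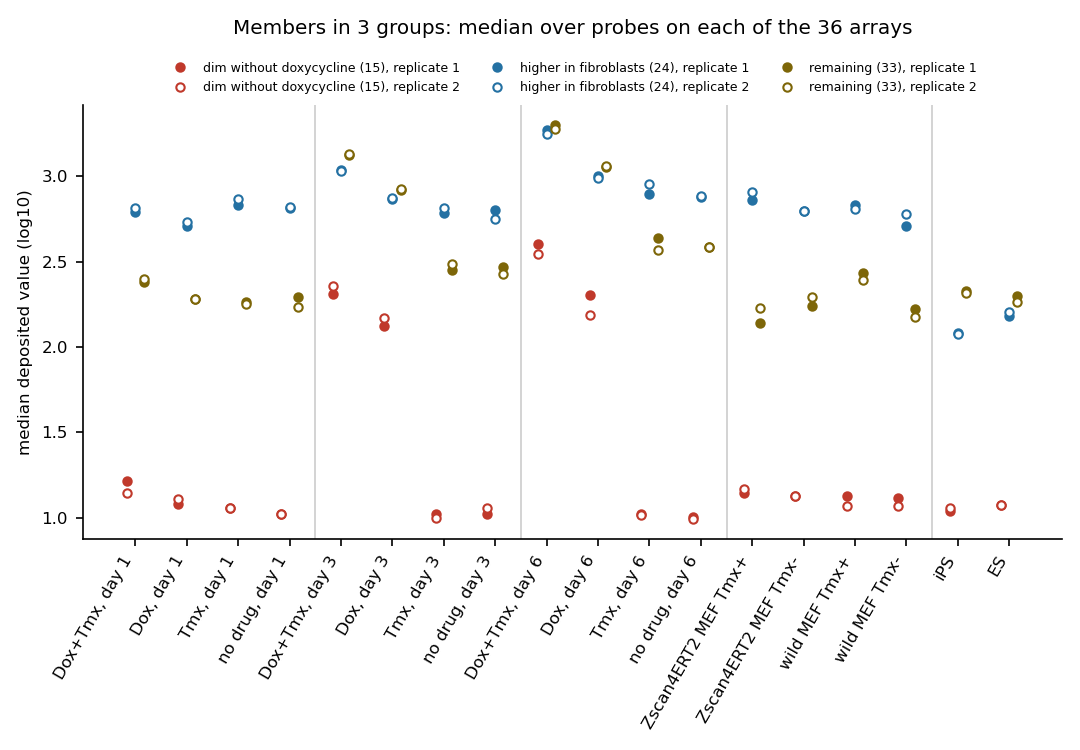
Median deposited log10 value of the 3 sets of members on each of the 36 arrays, with filled and open circles for replicates 1 and 2. The median of the 15 probes dim without doxycycline leaves the floor near 1 only on days 3 and 6 with doxycycline. That of the 24 probes higher in fibroblasts lies near 2.1 in iPS and ES cells and near 2.8 in primary MEFs.

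Day 6 with both drugs was the highest of the 18 groups for 32 members and day 3 with both drugs for 24. In 43 of the 72 both day 6 arrays with both drugs lay above every one of the 30 arrays outside the both-drug cultures, against 3.04% of the table, but the rule favours this. Against ES cells alone both arrays were higher for 67 members (35.7% of the table), against untreated wild MEFs for 60 (34.3%) and against drug-free day 6 cultures for 59 (31.3%), with 11 lower than the drug-free cultures (36.9%). The highest group was wild MEFs labelled Tmx+ for Z00076985-1, Z00048522-1, Z00034178-1 and Z00024184-1, and tamoxifen alone on day 1 for another 5. It was iPS cells for Z00062405-1 and for Z00025027-1, which gave 3.66 and 3.66 in iPS cells, 3.62 and 3.61 in ES cells and 3.34 and 3.35 in untreated wild MEFs. Between days 3 and 6 with both drugs, 39 members separated upward (30.5% of the table) and 26 downward (30.4%).

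The 15 members dim without doxycycline were first detected on different days. With both drugs, first detection on both arrays fell on day 1 for 3 of them, day 3 for 9 and day 6 for 3. With doxycycline alone the numbers were also 3, 9 and 3. Of the 3 detected on day 1, Z00055775-1 was also detected on both day 1 arrays with neither drug and with tamoxifen alone. Z00052736-1 was detected on both day 1 arrays with tamoxifen alone and on 1 with neither drug. The median of the 15 was 1.16, 2.33 and 2.57 on days 1, 3 and 6 with both drugs. It was 1.0995, 2.16 and 2.24 with doxycycline alone, against 1.02, 1.04 and 1.01 with neither drug. In iPS and ES cells it was 1.06 and 1.07, and by construction none of the 15 was detected on both arrays of either line.

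Z00022163-1 was the brightest riser among these 15. With both drugs it gave 2.68 and 2.72, then 3.64 and 3.56, then 3.37 and 3.40 on the 3 days in turn. Doxycycline alone gave 2.65 and 2.70, then 3.43 and 3.51, then 3.19 and 3.20, while drug-free cultures stayed between 0.84 and 1.12. Since the drug-free arrays were not well above background, the difference is given as a bound, the mean of the bright group's normalised log2 signals against the higher, per array, of the dim probe's own signal and the lowest signal well above background. With doxycycline alone Z00022163-1 was at least 26.6-fold higher than with neither drug on day 3 and at least 15.0-fold higher on day 6. Z00057680-1 followed with at least 5.17-fold and 4.14-fold. For Z00009019-1, the dimmest of the 15 with doxycycline alone on day 6, the bounds were 1.19-fold on day 3 and 1.09-fold on day 6. For Z00060430-1 no bound could be given on day 3.

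The 24 members higher in fibroblasts kept their signal without doxycycline. Their median on day 6 was 3.24 with both drugs, 3.00 with doxycycline alone, 2.93 with tamoxifen alone and 2.88 with neither drug, against 2.08 in iPS and 2.19 in ES cells. Z00045205-1 had the lowest pluripotent signal relative to fibroblasts, a difference of -1.72. It gave 2.02 and 1.96 in iPS cells and 2.11 and 2.02 in ES cells, against 3.69 and 3.75 in untreated Zscan4ERT2 MEFs and 3.721 and 3.797 in untreated wild MEFs. On day 6 it gave 3.85 and 3.74 with both drugs, 3.54 and 3.51 with doxycycline alone and 3.63 and 3.66 with neither drug. Cultures with both drugs thus lay above those with doxycycline alone and near the primary fibroblasts. Z00024184-1 (-1.60) came next, with 1.46 and 1.42 in iPS cells and 1.33 and 1.36 in ES cells, against 2.94 and 3.04 in untreated Zscan4ERT2 MEFs and 2.95 and 3.05 in untreated wild MEFs. It was detected on neither iPS array and on 1 of the 2 ES arrays. Z00025480-1 (-1.52) followed.

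The remaining 33 members had the highest median of the 3 sets on days 3 and 6 with doxycycline. Their median on days 1, 3 and 6 was 2.39, 3.13 and 3.29 with both drugs, 2.28, 2.93 and 3.08 with doxycycline alone, and 2.3045, 2.45 and 2.59 with neither drug, against 2.35 in iPS and 2.28 in ES cells. Z00031590-1 gave 3.71 and 3.78 on day 6 with both drugs and 3.503 and 3.513 with doxycycline alone, against 1.81 and 1.83 with neither drug. In ES cells it gave 2.15 and 2.14, above the drug-free fibroblasts and below both doxycycline groups.

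Doxycycline alone moved members both ways relative to drug-free cultures. On days 3 and 6 these differences share the doxycycline-alone arrays with the rule and are given without a test. By at least 0.3 in log10, 14 members were higher on day 1 (6.99% of the table) and 5 lower (3.86%). It was 39 higher on day 3 (11.2% of the table) and 6 lower (7.98%), and on day 6 it was 43 higher (9.79%) and 9 lower (8.53%). All 15 members dim without doxycycline were among the 43, which a set drawn by low detection in drug-free day 6 cultures favours. So were 9 of the 24 higher in fibroblasts and 19 of the remaining 33. Of the 9 lower on day 6, 6 were higher in fibroblasts and 3 among the remaining.

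In those 9, cultures with both drugs lay between doxycycline alone and no drug. Z00006007-1, the brightest, averaged 3.93 on day 6 with both drugs and 3.69 with doxycycline alone, against 4.77 with neither drug. Z00005803-1 averaged 3.56 with both drugs and 3.33 with doxycycline alone, against 4.18 with neither drug. Z00025480-1 came nearest to the drug-free level, with 3.74 and 3.53 against 3.85. The share of the gap between doxycycline alone and no drug that was made up with both drugs had a median of 38.0% on day 6 (22.0% to 64.5%, 9 probes) and 38.5% on day 3 (18.1% to 53.7%, 6 probes). All 9 and all 6 stayed below the drug-free mean. The rule and the limit of 0.3 both act on these arrays, so the share describes the chosen probes and nothing is read from it.

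**Figure D3:**
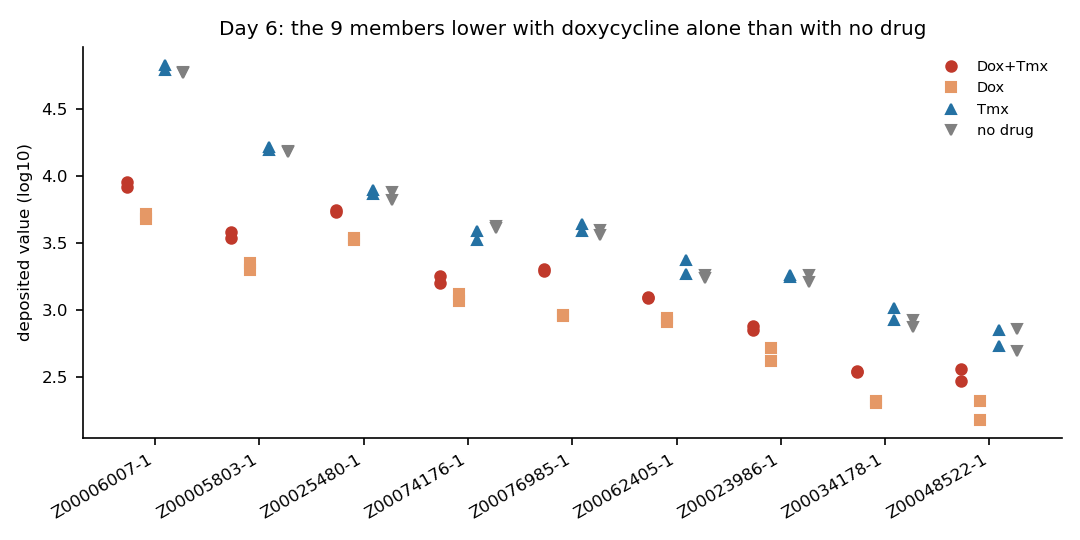
Deposited log10 values on day 6 of the 9 members that were at least 0.3 lower with doxycycline alone than with neither drug, with 2 arrays a culture. Circles (both drugs) lie above squares (doxycycline alone) and below triangles (tamoxifen alone and no drug) in all 9.

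Day 1 with doxycycline was not used by the rule, and there the tamoxifen difference was tested. In log2 ratios it had a median of 0.11 over the members (-0.08 to 0.44) and was above 0 in 55 of 72 (76.4%), against a median of 0.00 and 49.5% of all 33099 probes fitted. Limma with Benjamini-Hochberg adjustment over all probes called 3 members higher (0.275% of all probes) and 0 lower (0.103%), with 20 members (27.8%) at an unadjusted p under 0.05, against 5.15% of all probes. Z00071804-1 gave log2 ratios of 2.45 and 2.34 with both drugs, against 1.92 and 1.99 with doxycycline alone (change 0.44 ± 0.09 SE, limma adjusted p = 0.0214), a call lost in 8 of 10 alternatives. Z00059026-1 gave 1.29 and 1.27 with both drugs, against 0.84 and 0.88 with doxycycline alone (0.42 ± 0.07 SE, limma adjusted p = 0.00302). Z00013970-1 gave -0.58 and -0.40 with both drugs, against -0.89 and -0.91 with doxycycline alone (0.41 ± 0.07 SE, limma adjusted p = 0.0018). All 3 belong to the remaining 33, and in each the groups did not overlap. Leaving out an array lowered the count to 1 or 2, and to 1 without doxycycline alone replicate 1 or without both drugs replicate 2.

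By set, the day 1 median of the tamoxifen difference was 0.00 in the 15 members dim without doxycycline, 12 of which were not yet detected on both arrays, 0.13 in the 24 higher in fibroblasts and 0.13 in the remaining 33. In the 210 probes that passed the same rule but were raised in pluripotent cells, limma called 19 higher and 0 lower, with a median of 0.09. No test compared day 1 with days 3 and 6.

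Without doxycycline, no member passed the test for tamoxifen. Limma called 0 members and 0 of all probes (0%) on days 1, 3 and 6 and in the mean of the days. Members at an unadjusted p under 0.05 numbered 7, 1, 19 and 15 (9.72%, 1.39%, 26.4% and 20.8%), against 7.14%, 2.47%, 9.05% and 12.8% of all probes. The deposited value table gave 4 calls, all higher, on day 6 and 2 in the mean of the days. For some members it held equal values on both tamoxifen-alone day 6 arrays, as for Z00030685-1 (3.2033 and 3.2033). Equal values also occurred in groups the rule used, as in untreated wild MEFs for Z00010834-1 (2.303 and 2.303). Nothing is therefore read from these calls. The median changes were 0.03 on day 1, 0.01 on day 3, 0.08 on day 6 and 0.04 in the mean of the days, against 0.00, 0.00, 0.01 and 0.00 over all probes. The 72 changes in the mean of the days lay between -0.16 and 0.37. The day 6 result depends on the pair of arrays that stood apart. Without tamoxifen alone replicate 1, some members were called on day 6 and in the mean of the days. So were many probes outside the members on day 6. Leaving out 1 array in turn put the members' median day 6 change between 0.03 and 0.11. The largest day 6 change was that of Z00030685-1, which gave -2.66 and -1.38 with tamoxifen alone, against -3.20 and -3.26 with neither drug (limma adjusted p = 0.142).

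The difference between the tamoxifen changes with and without doxycycline on day 1 was tested as an interaction. Limma called 0 members higher (0.0906%) and 0 lower (0.0211%), with 12 (16.7%) at an unadjusted p under 0.05, against 6.18% of all probes, and a median of 0.06 (-0.24 to 0.49). The deposited value table gave 1 member called higher, as did the fit without drug-free day 1 replicate 1. Of the 210 probes raised in pluripotent cells, limma called 9 higher and 0 lower, with a median of 0.16.

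**Figure D4:**
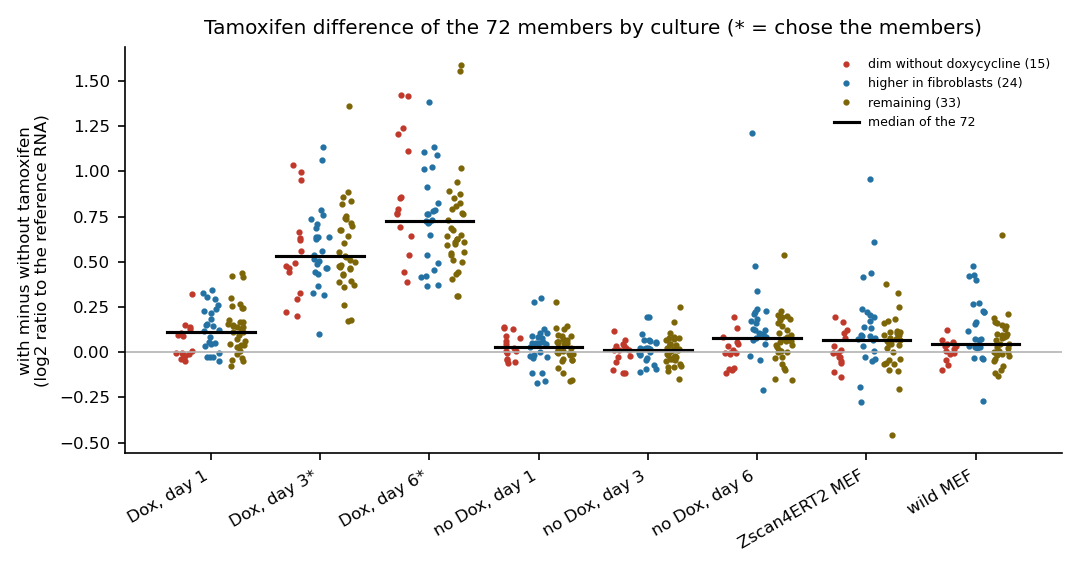
Log2 ratio with tamoxifen minus that without, for the 72 members (1 point each, coloured by set) in 8 pairs of groups, with the median as a bar. The medians are 0.11, 0.53 and 0.73 on days 1, 3 and 6 with doxycycline, where days 3 and 6 chose the members, and between 0.01 and 0.08 in all 5 pairs without it.

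Doxycycline alone was tested against no drug on day 1, across slides. Limma called 25 members higher (23.5% of all probes) and 14 lower (22.8%). The median was 0.09, against -0.02 over all probes. Among the highest, Z00030610-1 gave log2 ratios of 2.25 and 2.35 with doxycycline alone, against -0.40 and -0.39 with neither drug (change 2.70 ± 0.07 SE, limma adjusted p = 1.24e-20). Z00022163-1 was at least 4.12-fold higher, since neither drug-free array was well above background (limma adjusted p = 5.35e-17). Z00060176-1 gave 1.73 and 1.76 with doxycycline alone, against -0.33 and -0.53 with neither drug (2.18 ± 0.09 SE, limma adjusted p = 2.05e-16).

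The 3 members that fell furthest on day 1 were all in the set called higher in fibroblasts. Z00005803-1 (-0.304) and Z00058639-1 (-0.301) only just passed its limit of 0.3 below fibroblasts. In deposited values Z00058639-1 averaged 2.29 in untreated wild MEFs, against 2.21 in ES and 2.22 in iPS cells. Z00005803-1 gave log2 ratios of -2.04 and -1.96 with doxycycline alone, against 0.31 and 0.18 with neither drug (change -2.25 ± 0.07 SE, limma adjusted p = 4.13e-19). Z00006007-1 gave 1.02 and 1.12 with doxycycline alone, against 3.28 and 3.22 with neither drug (-2.17 ± 0.06 SE, limma adjusted p = 3.09e-20). Z00058639-1 gave -2.71 and -2.61 with doxycycline alone, against -0.83 and -1.14 with neither drug (-1.67 ± 0.10 SE, limma adjusted p = 3e-13). Z00005803-1 and Z00006007-1 are also in the plot of the 9 members that were lower with doxycycline alone on day 6. By set, limma called 3 higher and 0 lower of the 15 dim without doxycycline. It called 7 and 9 of the 24 higher in fibroblasts, and 15 and 5 of the remaining 33. Only 1 of the 15 was detected on both drug-free day 1 arrays, so nothing is read from their 0 lower calls. In the 210 probes raised in pluripotent cells, 81 were called higher and 22 lower.

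Over 6 days of culture without any drug, change was common in members and in all probes. An unadjusted p under 0.05 was reached by 47 members (65.3%), against 59.1% of all probes. Limma called 29 members higher on day 6 than on day 1 (27.6% of all probes) and 14 lower (27.5%). The members' median was 0.09, against -0.02 over all probes. Z00023986-1 rose most, with log2 ratios of 1.80 and 1.46, then 2.89 and 3.02, then 4.28 and 4.33 on days 1, 3 and 6 (day 6 minus day 1, 2.67 ± 0.10 SE, limma adjusted p = 1.35e-16). Z00036180-1 changed by 2.08 ± 0.20 SE (limma adjusted p = 3.13e-09) and Z00076985-1 by 1.82 ± 0.07 SE (limma adjusted p = 8.43e-17). All 3 are in the set called higher in fibroblasts. For Z00023986-1 that does not hold in wild MEFs alone. Its deposited values were 1.46 and 1.78 in untreated wild MEFs, detected on neither array, and 1.49 and 1.49 in ES cells.

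Z00039191-1 fell most, with 2.299 and 2.320, then 0.90 and 0.94, then 0.46 and 0.58 on days 1, 3 and 6 (-1.79 ± 0.09 SE, limma adjusted p = 8.89e-15). Z00051631-1 changed by -1.69 ± 0.08 SE (limma adjusted p = 3.64e-15) and Z00055562-1 by -1.51 ± 0.08 SE (limma adjusted p = 2.11e-14), the last of these nearly all between days 1 and 3. Of the 24 higher in fibroblasts 14 were called higher and 8 lower. Of the 15 dim without doxycycline it was 1 and 2, but these were chosen for their lack of signal in drug-free cultures, so nothing is read from that count. In the 210 probes raised in pluripotent cells 24 were called higher and 97 lower, and the sets were not compared by a test.

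The iPS and ES arrays entered the rule only through their mean, and the difference between the lines was tested. By limma, 13 members were lower in iPS than in ES cells (5.15% of all probes) and 3 higher (2.92%). The median was -0.06, against 0.00 over all probes, and 24 of 72 were above 0 (33.3%), against 50.1% of all probes. Z00042672-1 gave log2 ratios of -1.18 and -1.11 in iPS cells, against -0.49 and -0.50 in ES cells (change -0.65 ± 0.11 SE, limma adjusted p = 0.000203). Z00046691-1 gave -1.36 and -1.28 in iPS cells, against -0.72 and -0.76 in ES cells (-0.58 ± 0.05 SE, limma adjusted p = 3.96e-08). Z00005803-1 gave -0.14 and -0.20 in iPS cells, against 0.42 and 0.34 in ES cells (-0.55 ± 0.07 SE, limma adjusted p = 2.62e-06). Z00076985-1 went the other way, with -3.50 and -3.53 in iPS cells against -4.18 and -4.02 in ES cells (0.59 ± 0.07 SE, limma adjusted p = 1.49e-06). Z00074251-1 (0.23, limma adjusted p = 0.0404) and Z00014814-1 (0.21, limma adjusted p = 0.0468) were higher by less. Without ES replicate 2 the counts were 1 higher and 8 lower. In the 210 probes raised in pluripotent cells, 9 were called higher and 64 lower.

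In primary MEFs, without the reprogramming factors, the 72 changed with tamoxifen by a median of 0.07 in Zscan4ERT2 MEFs (-0.46 to 0.96) and 0.05 in wild MEFs (-0.27 to 0.65), against 0.00 and 0.01 over all probes. The untreated arrays of both lines entered the rule, so these values carry no test. The rule used only the mean of both lines' untreated arrays, and the difference between the lines was tested, across slides. Limma called 3 members higher (0.378% of all probes) and 0 lower (0.378%), with 14 (19.4%) at an unadjusted p under 0.05, against 10.6% of all probes, and a median of 0.02. Z00058639-1 gave log2 ratios of -1.32 and -1.22 in Zscan4ERT2 MEFs with tamoxifen, against -2.12 and -2.32 without (0.73 ± 0.14 SE for the difference between lines, limma adjusted p = 0.00995). In wild MEFs it gave -2.80 and -2.86 when labelled Tmx+, against -3.15 and -2.96 when labelled Tmx-. Z00013970-1 (0.41 ± 0.09 SE, limma adjusted p = 0.0351) and Z00023986-1 (limma adjusted p = 0.0337) were the other two. Z00023986-1 was detected on neither untreated wild MEF array, so its size of difference is not defined. Z00013970-1 had also been called higher with tamoxifen on day 1 beside doxycycline. The 3 calls fell to 0 without Zscan4ERT2 Tmx- replicate 2 or without wild Tmx+ replicate 2, and to 1 without Zscan4ERT2 Tmx+ replicate 2 or without wild Tmx- replicate 1. They also fell to 0 when local backgrounds were used as deposited, where the change of Z00058639-1 had the opposite sign (-0.09).

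Some members share sequence with other probes of the array, so a difference can be read from more than 1 probe. Z00010273-1 and Z00057680-1, both dim without doxycycline, share a run of 25 bases, in capitals here.
Z00010273-1: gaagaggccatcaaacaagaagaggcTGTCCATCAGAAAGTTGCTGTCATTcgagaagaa
Z00057680-1: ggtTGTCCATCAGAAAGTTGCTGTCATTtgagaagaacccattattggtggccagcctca

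Both drugs minus doxycycline alone on day 6 was 1.11 in log2 ratio for Z00010273-1 and 0.86 for Z00057680-1. Day 3 gave 1.04 and 0.95 for the same probes. Sharing sequence, these members are not independent of each other. Z00074251-1 shares 51 bases with Z00025189-1, a probe outside the deposited table, and they gave 0.83 and 0.69 on day 6. Z00058639-1 shares 50 bases with Z00025395-1, also outside it, with 0.72 and 0.69. Z00031590-1 shares 41 bases with Z00075510-1, with 0.89 and 0.94. These 3 outside probes had no part in the rule but were measured on the same arrays, and on day 6 each lay within 0.15 of its member. On day 3 the 3 pairs gave, in the same order, 0.74 and 0.68, 0.49 and 0.48, and 0.39 and 0.56. The last pair was thus further apart on day 3.

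Other runs gave mixed results. Z00026084-1 shares 28 bases with Z00026043-1 and with Z00060172-1, and the 3 gave 1.55, 1.37 and 1.35 on day 6. Z00032919-1 shares 34 bases with Z00057507-1 and with Z00058935-1, which were too dim for the filter and gave -0.16 and -0.14 where the member gave 0.37. It also shares 24 bases with Z00060985-1, which gave 0.35, and 22 with the member Z00050391-1, which gave 0.62. Z00031942-1 shares 22 bases with Z00042912-1, which gave 0.10 against the member's 0.45.

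Outside the members, the 3 probes whose 18 group means followed the members' mean profile most closely were Z00024791-1, Z00019497-1 and Z00074256-1, with Pearson correlations of 0.971, 0.968 and 0.963 over groups that share slides and the reference RNA. Z00024791-1 gave 4.83 with both drugs on day 6, 4.75 with doxycycline alone and 4.43 with neither drug. Its selecting difference was 0.05, and those of the other two were 0.04 and 0.00. All 3 selecting differences were thus below the members' limit of 0.15.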

How the data were processed

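RNA of 36 mouse samples (18 groups of 2) was hybridised in Cy3 to 2-colour Agilent arrays against a Cy5 reference RNA pool with no dye swap, per the labels. Per the file headers, Agilent's Feature Extraction 9.5.1.1 made the deposited spot intensities. The submitters' value table, as deposited, holds log10 values whose making is not given in the sources used here. Differences between its arrays followed the sample-over-reference ratio of the scanner files (r 0.962 to 0.999 over 14641 probes), higher meaning more sample RNA. Its absolute scale stayed unknown.

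The value table chose the members and gave the levels. Tests used log2 ratios of sample over reference from the mean signals and local backgrounds, after normexp background correction (offset 50; the array's median stood in for outlying local backgrounds) and loess within each array. Of 42006 probes, 33099 well above background on both arrays of at least 1 group were fitted over all groups with limma 3.58.1 in R 4.3.3 (18 residual degrees of freedom), with Benjamini-Hochberg adjustment over all of them and calls at 0.05. All 72 members passed the filter, 0 were saturated. Named for each test were the 3 members with the largest calls in each direction, and for the levels the 6 largest selecting differences, the 3 lowest pluripotent minus fibroblast differences, the probes next to each limit and the 3 most similar non-members. Other probes were named after their values were seen. The members, sets and lists were chosen with earlier results of these data known. Planned gene lists and cell type markers could not be applied, since the probes carry no gene symbols, so the labelled cell types and transgenes were not checked. The fit was tested on simulated data.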

Additional observations from a re-analysis of the deposited data

Results flagged for a closer look

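The tamoxifen change of 3 members differed between Zscan4ERT2 and wild MEFs by a limma interaction test. On the log2 scale, the change in Zscan4ERT2 MEFs minus that in wild MEFs was 0.73 for Z00058639-1, 0.41 for Z00013970-1 and, as fitted, 0.64 for Z00023986-1, which was at background in untreated wild MEFs, so that its size is not defined. The 4 primary MEF groups used separate slides, so line, tamoxifen and slide cannot be told apart.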

How the results depend on the processing

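Counts below are members called by limma. Shares of all probes under each setting are not given, so the counts show only whether calls were kept. For tamoxifen beside doxycycline on day 1, higher calls fell to 1 with local backgrounds as deposited, with Feature Extraction log ratios and with the deposited value table (20183 probes). The value table gave 4 higher calls for tamoxifen without doxycycline on day 6, 2 in the mean of the days and 1 for the day 1 interaction. For some members it held equal values on both tamoxifen-alone day 6 arrays. Lower calls over culture time fell to 9 with local backgrounds as deposited. For iPS minus ES cells, higher calls were 1 and lower calls 8 with those backgrounds, while higher calls were 5 without background subtraction, 7 in the value table and 1 with no filter on dim probes. For the difference between MEF lines, higher calls were 0 with backgrounds as deposited and 7 in the value table, and lower calls 1 without background subtraction, 1 with Feature Extraction log ratios and 6 in the value table. Z00058639-1 reversed there, at -0.0895 with backgrounds as deposited. The causes were not tested. The rule itself gave 205 members at a minimum difference of 0.1 and 36 at 0.2. All 12 named results for doxycycline on day 1 and for culture time kept direction and call in 10 of 10 alternatives. Of the 3 calls for tamoxifen beside doxycycline on day 1, Z00071804-1 was lost in 8 of 10, Z00059026-1 in 4 and Z00013970-1 in 2. For iPS minus ES cells Z00014814-1 was lost in 7 of 10 and Z00074251-1 in 6. For the MEF lines, of 14 alternatives, Z00023986-1 was lost in 9, Z00013970-1 in 8 and Z00058639-1 in 3.

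Leaving out 1 array gave 1 to 2 higher calls and 0 lower for tamoxifen beside doxycycline on day 1, 0 to 14 higher and 0 to 2 lower for tamoxifen alone on day 6, 0 to 11 and 0 to 1 in the mean of the days, and 0 to 1 higher for the interaction. It gave 22 to 24 higher and 11 to 13 lower for doxycycline, 25 to 27 and 11 to 15 for culture time, 1 to 2 and 8 to 11 for iPS minus ES cells, and 0 to 4 and 0 to 2 for the MEF lines.

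Deviations of same-numbered arrays had correlations of -0.28 to 0.39 between the groups compared. The highest were for tamoxifen without doxycycline, with 0.39 on day 6 and 0.16 on day 1. The signs were mixed, and whether the numbers mark a pairing is not known. With the replicate number as a block, higher and lower calls were 3 and 0 for tamoxifen beside doxycycline on day 1, 25 and 14 for doxycycline, 29 and 15 for culture time, 2 and 12 for iPS minus ES cells, and 3 and 0 for the MEF lines. A random slide block was not run, since the group fixes the slide. With 2 arrays a group, small changes in dim probes could not be resolved.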
